A study of Homo sapiens with 12 samples.

Results

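In all, 10 genes of the YAP and TEAD pathway were followed in HK-2 cells, a line of immortalised proximal tubule epithelium of the human kidney. They were 2 secreted matricellular targets (CCN1, CCN2), the targets ANKRD1 and AXL, the feedback regulators AMOTL2, LATS2 and AJUBA, the coactivators YAP1 and WWTR1, and the TEAD factor TEAD1. All probe sets that the array annotation assigns to exactly 1 of these genes were taken, 24 of 41091 probe sets with a single gene. The genes with a probe set numbered 10 of 19775, and 9 of the 10791 genes tested. Cells had received a low dose of the compound labelled Aa or the vehicle in the control wells, for 24 h or 48 h, with 3 arrays in each of 4 groups (Aa at 24 h, control at 24 h, Aa at 48 h, control at 48 h). Treatment began at about 90% confluency, 24 h after seeding, and every group grew in medium with 10 ng/ml EGF, hydrocortisone, insulin, transferrin and selenite. What Aa stands for, its dose and the vehicle were not stated. The labels call the arrays of a group biological replicates but do not say how the cultures differed, and the p-values here reflect only how far those arrays scatter, which may be technical. The larger study looked for expression signatures of kidney toxicity.

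YAP1 and its paralogue WWTR1 (also called TAZ) are coactivators that enter the nucleus, bind TEAD transcription factors and switch on genes of growth and matrix signalling. The Hippo kinases, which end in LATS1 and LATS2, phosphorylate the coactivators and hold them in the cytoplasm. Cell density, tension on the cytoskeleton and junction proteins set the activity of the kinases, and in renal tubule cells the pathway is known for its part in injury and fibrosis. Some target genes, among them LATS2, AMOTL2 and AJUBA, encode regulators of the pathway itself.

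The 12 arrays were alike, with Pearson's r from 0.980 to 0.997 across probe sets. Arrays that carry the same replicate number deviated together across groups, and the fit with the number as a block is therefore given where it changes the call of a named gene or the counts of a list. Of 13 epithelial and proximal tubule markers, 6 had a probe set past the filter (a mean of at least 4 log2 units), PAX8, CDH2, CDH6, KRT8, KRT18 and KRT19. The other 7, among them the brush border and transport genes ANPEP, AQP1, LRP2 and CUBN, had group means between 2.08 and 3.09. The summed level of the 13, as log2 of the sum, was 14.90 to 15.00 in 24 h controls against 14.47 to 14.65 with Aa, and 14.45 to 14.78 against 14.29 to 14.51 at 48 h. Of 7 fibroblast markers COL1A1, DCN and LUM were past the filter while COL1A2, COL3A1, PDGFRA and PDGFRB were not, and the summed level was 12.22 to 12.69 in controls and 11.96 to 12.34 with Aa at 24 h (12.15 to 12.40 and 11.60 to 12.07 at 48 h). Of the endothelial and leukocyte markers 0 of 5 and 0 of 4 were past it. The control probe sets for 28S ribosomal RNA averaged 6.37 in controls and 7.28 with Aa at 24 h, and 6.74 and 7.56 at 48 h, differences of 0.91 and 0.81. The part of these shifts in the results that follow was not tested.

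Promoter sequences were also read for these genes. TEAD factors bind the element GGAATG (reverse complement CATTCC), which was searched on both strands in the 250 bases before the start of each transcript in RefSeq (GRCh38.p14). The table held 12 such windows for 8 of the 10 genes, all but CCN1 and TEAD1. The element was present in 6 of them, against 11.9% of the 35116 windows in the table. CCN2 had 3 copies, at 169 to 164, 104 to 99 and 95 to 90 bases before the start, and ANKRD1 had 2, at 220 to 215 and 128 to 123, where 0.94% of all windows hold 2 or more. YAP1, AMOTL2, AJUBA and AXL had 1 copy each, AMOTL2, AJUBA and AXL in 1 of 2 windows, and LATS2 and WWTR1 had 0. For AP-1 the pattern TGANTCA was searched, which allows any base in the middle. It matched once, as TGATTCA in ANKRD1, at 195 to 189 bases before the start and clear of the TEAD elements (6.57% of all windows match the pattern). The CArG box of SRF was found in 0 windows of these genes (1.16% of all). A match describes the letters only. The 4 windows below all hold the element. They are those of CCN2, ANKRD1 and the feedback regulators AMOTL2 and AJUBA. CCN2 is the best known direct target, and the only probe set of ANKRD1 lay below the filter. LATS2, the feedback regulator with 0 copies, is not shown. The windows lie at chr6:131951373-131951622, chr10:90921088-90921337, chr3:134374448-134374697 and chr14:22976843-22977092, all on the minus strand. They are written 5′ to 3′ with the TEAD element in capitals.
CCN2: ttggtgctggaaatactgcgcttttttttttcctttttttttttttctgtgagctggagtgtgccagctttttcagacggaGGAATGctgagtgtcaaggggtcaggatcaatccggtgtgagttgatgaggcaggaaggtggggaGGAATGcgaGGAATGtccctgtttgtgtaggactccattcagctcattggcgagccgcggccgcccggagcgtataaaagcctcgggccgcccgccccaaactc
ANKRD1: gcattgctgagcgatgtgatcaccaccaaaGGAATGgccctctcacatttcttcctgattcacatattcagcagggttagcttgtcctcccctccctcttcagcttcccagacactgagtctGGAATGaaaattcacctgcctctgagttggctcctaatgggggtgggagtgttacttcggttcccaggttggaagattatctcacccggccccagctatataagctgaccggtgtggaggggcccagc
AMOTL2: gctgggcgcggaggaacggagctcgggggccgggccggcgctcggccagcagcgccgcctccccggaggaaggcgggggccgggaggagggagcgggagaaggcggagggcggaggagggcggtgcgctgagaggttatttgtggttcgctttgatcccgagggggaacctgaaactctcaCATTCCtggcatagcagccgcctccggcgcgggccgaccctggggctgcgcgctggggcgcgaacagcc
AJUBA: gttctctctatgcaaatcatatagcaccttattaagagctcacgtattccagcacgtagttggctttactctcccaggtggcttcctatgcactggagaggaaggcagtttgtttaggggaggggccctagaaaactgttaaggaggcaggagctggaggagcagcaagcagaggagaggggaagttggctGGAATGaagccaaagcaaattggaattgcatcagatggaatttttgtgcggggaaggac

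The CCN genes were the members that fell after 24 h. CCN1 and CCN2 encode secreted proteins that bind integrins and the matrix, and they are the targets most often read as a measure of YAP activity. Both were about 2-fold lower with Aa, while the coactivators, TEAD1 and the feedback regulators did not pass the test on their brightest probe set. In total 2 of 9 genes tested fell and 0 rose, where 23.1% of all genes tested were called (a Benjamini-Hochberg adjusted p under 0.05 in limma over 10791 genes), so the members' share is close to the background. Their median change was 0.02 and that of all genes -0.02, and the median size of the change was 0.14 against 0.24 for all genes. In a bulk extract, fewer cells that carry a transcript and less of it in each cell cannot be told apart.

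CCN1 stood at 12.18, 11.57 and 12.19 log2 units in the 24 h controls and at 10.72, 10.44 and 11.56 with Aa. The highest Aa array thus lay just under the lowest control array. The change was -1.08 (SE 0.32, 95% interval -1.78 to -0.37, adjusted p = 0.0323), a 2.11-fold fall, and it was seen in 3 of 3 replicate pairs (-1.47, -1.13 and -0.63). A further probe set of CCN1 fell by 0.99 (SE 0.27). This call was lost in 8 of 25 alternatives. Adjusted p was 0.0841 without a filter, 0.0555 with the 24 h groups alone, 0.105 without Aa replicate 1, 0.0962 without Aa replicate 2, 0.101 without control replicate 1, 0.104 without control replicate 3, 0.314 without replicate 1 in all groups and 0.0871 without replicate 2 in all groups. The change in these 8 was -1.08 to -0.84.

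CCN2 stood at 10.04, 9.43 and 9.80 in the 24 h controls and at 8.83, 8.36 and 9.11 with Aa, and the groups did not overlap. It fell by 0.99 (SE 0.21, 95% interval -1.46 to -0.52, adjusted p = 0.00751), or 1.99-fold, and by 1.21, 1.07 and 0.69 in the 3 pairs. Leaving out replicate 1 in all groups ended this call (adjusted p = 0.139, change -0.88), and no other of its 25 alternatives did. ANKRD1, the cardiac ankyrin repeat gene and a widely used target, could not be judged: its only probe set lay between 2.29 and 2.40 on all 12 arrays, below the filter, although its promoter holds 2 TEAD elements. Groups that do not overlap were seen in 3 of 9 members at 24 h, in CCN1, CCN2 and YAP1, against 40.5% of all genes.

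After 48 h neither CCN gene was called in the reported fit, and the difference between them was not tested. CCN2 was near the control level, with 9.75, 9.37 and 9.90 in controls and 9.58, 9.68 and 9.82 with Aa (change 0.02, SE 0.21, 95% interval -0.45 to 0.49, adjusted p = 0.950). Control arrays themselves differed little between the times (-0.08, SE 0.21), and the Aa arrays were higher at 48 h than at 24 h in 3 of 3 replicates. The change of the Aa effect between the times was 1.01 (SE 0.30, 95% interval 0.35 to 1.68) and missed the threshold, with adjusted p = 0.164, where 0.825% of all genes were called. With the replicate number as a block it passed, with adjusted p = 0.0175, where 11.0% of all genes were called.

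CCN1 was still lower with Aa in 3 of 3 pairs at 48 h, at 10.56, 10.59 and 11.08 against 11.38, 11.28 and 12.15 in controls. The groups did not overlap. The change of -0.86 (SE 0.32, 95% interval -1.57 to -0.16) just missed the threshold (adjusted p = 0.0527). It was called in 9 of 25 alternatives, with adjusted p from 0.00181 (the replicate block) to 0.0498. Its other probe set fell by 0.78 (adjusted p = 0.0438 among 19623 probe sets). The effect on CCN1 changed by 0.21 from 24 h to 48 h (SE 0.45, adjusted p = 0.867), with an interval of -0.78 to 1.20. Among the other CCN genes only CCN3, which encodes a growth-restraining member of the family, was bright enough to test. It went from 9.41 in controls to 10.03 with Aa at 48 h, a rise of 0.62 (SE 0.21, adjusted p = 0.0379), after -0.30 (SE 0.21) at 24 h. Of the 3 CCN genes tested 0 rose and 2 fell at 24 h and 1 rose and 0 fell at 48 h (1 and 1 with the block). Of all genes 23.1% and 37.8% were called at these times, and 54.8% at 48 h with the block.

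**Figure D1:**
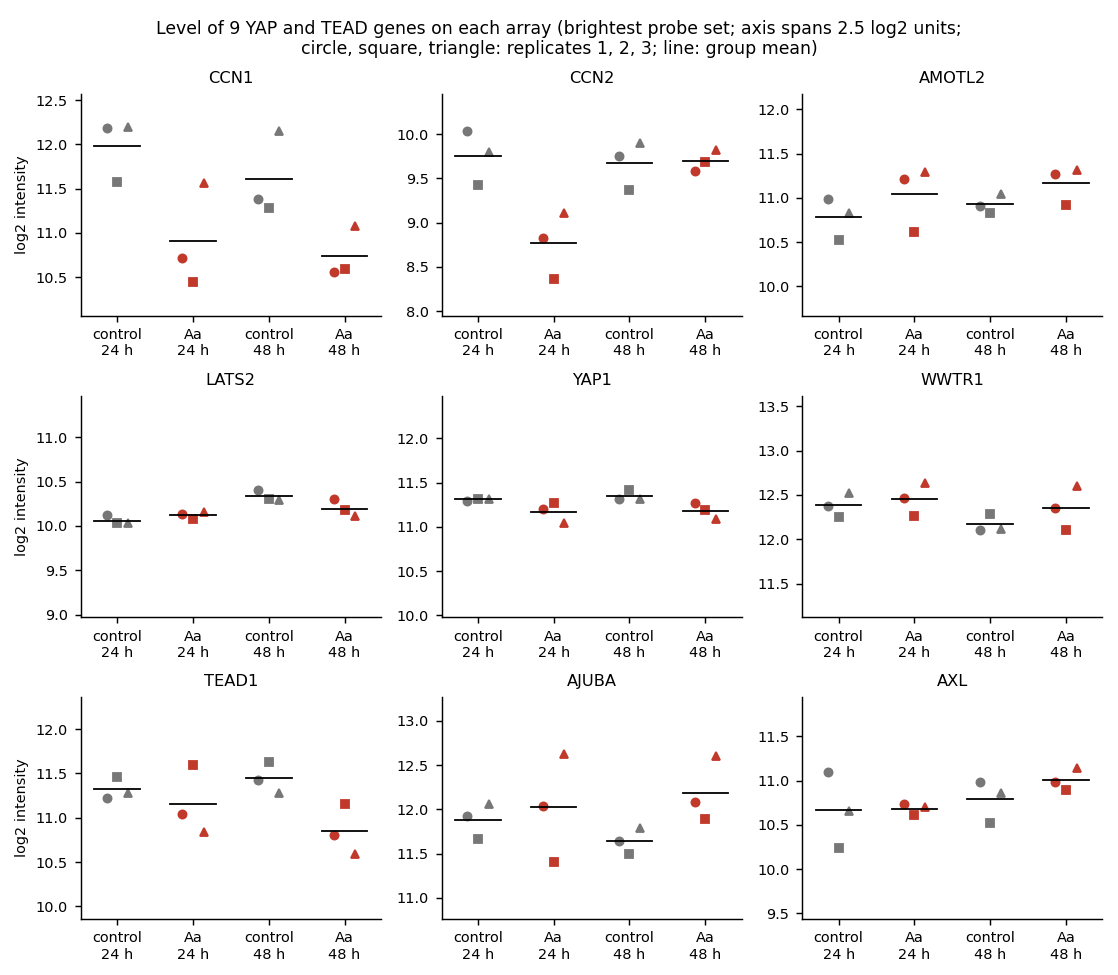
Level of the 9 members tested on each array, in log2 intensity, by group (grey controls, red Aa; circle, square and triangle are replicates 1, 2 and 3; the line is the group mean; every axis covers the same log2 span). CCN1 lies lower with Aa at both times, CCN2 only at 24 h, from 8.36 to 9.11 against 9.43 to 10.04, and TEAD1 at 48 h.

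TEAD1, the DNA-binding partner of the coactivators, was the member that fell at 48 h. Its controls read 11.43, 11.63 and 11.28 and its Aa arrays 10.80, 11.16 and 10.59. The groups did not overlap, and the change was -0.60 (SE 0.20, 95% interval -1.04 to -0.15, adjusted p = 0.0382), a 1.51-fold fall. At 24 h it had been -0.16 (SE 0.20), and the difference between the times was not called (-0.44, SE 0.29, adjusted p = 0.517). The dimmer TEAD1 probe sets read -0.53 (SE 0.19, adjusted p = 0.0552, and 0.0122 with the block) and -0.51 (SE 0.43) at 48 h. TEAD1 was lower in 3 of 3 pairs (-0.63, -0.47 and -0.69), and the fit with the block called it (adjusted p = 0.00134). The call was lost in 10 of 25 alternatives, with adjusted p from 0.0512 to 0.238 and a change from -0.61 to -0.47. Aa replicates 1 (0.0984) and 3 (0.139), control replicates 1 (0.0787) and 2 (0.123) and 24 h control replicate 3 (0.0512) each ended it when left out, as did leaving out replicate 1 or 3 in all groups (0.238 and 0.135), and the others that lost it were no filter, the mean of probe sets and median centring. In total 1 of 9 members fell and 0 rose at 48 h, where 37.8% of all genes were called. The median size of the members' changes was 0.22 against 0.32 for all genes, and groups that did not overlap were seen in 4 of 9 members (CCN1, YAP1, TEAD1 and AJUBA) against 48.4% of all genes.

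With the replicate number as a block, 2 members fell and 0 rose at 24 h (41.3% of all genes called), and 2 fell and 1 rose at 48 h (54.8%). The 3 at 48 h were CCN1, TEAD1 and AJUBA.

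The coactivators kept close to their control levels on most probe sets. YAP1 read 11.29, 11.32 and 11.32 in 24 h controls and 11.20, 11.27 and 11.04 with Aa, a difference of -0.14 (SE 0.09, interval -0.34 to 0.06, adjusted p = 0.304). At 48 h it read 11.32, 11.42 and 11.32 against 11.27, 11.19 and 11.09 (-0.17, SE 0.09, interval -0.37 to 0.03, adjusted p = 0.156). All 3 Aa arrays lay below all 3 controls at each time, but the shift was small. The other YAP1 probe sets read -0.18 and -0.30 at 24 h and -0.23 and -0.05 at 48 h, and only the fit with the block called any of them, 224895_at at 48 h (adjusted p = 0.0332).

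WWTR1 was measured at 12.38, 12.25 and 12.52 in 24 h controls and at 12.47, 12.26 and 12.63 with Aa on its brightest probe set (0.07, SE 0.14, adjusted p = 0.776). At 48 h the difference was 0.18 (SE 0.14, interval -0.13 to 0.49, adjusted p = 0.340). A dimmer probe set of WWTR1, 202134_s_at, gave another picture: it fell by 1.13 (SE 0.32, adjusted p = 0.0287) at 24 h, from 10.44, 10.42 and 10.94 to 9.12, 9.23 and 10.05. It also read 0.99 lower in 48 h than in 24 h controls (SE 0.32, adjusted p = 0.202), where its Aa difference was -0.28 (adjusted p = 0.536, and 0.0490 with the block). The remaining WWTR1 probe set, 202132_at, read -0.06 at 24 h and 0.25 at 48 h, the latter called as a rise with the block alone (adjusted p = 0.0410).

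Of the feedback regulators AMOTL2, LATS2 and AJUBA none was called on its brightest probe set at either time. AMOTL2, which encodes a junction protein that binds and retains YAP, read 10.99, 10.52 and 10.83 in 24 h controls and 11.21, 10.62 and 11.29 with Aa, and at 48 h 10.91, 10.83 and 11.04 against 11.27, 10.92 and 11.32. It was higher with Aa in 3 of 3 pairs at each time, by 0.26 (SE 0.19, interval -0.16 to 0.68, adjusted p = 0.368) and by 0.24 (SE 0.19, interval -0.18 to 0.66, adjusted p = 0.349), neither of which was called. LATS2, the kinase, differed by 0.06 at 24 h (SE 0.08) and by -0.14 at 48 h (SE 0.08, adjusted p = 0.221) on its brightest probe set. In control cells that probe set went from 10.12, 10.03 and 10.03 at 24 h to 10.41, 10.30 and 10.29 at 48 h, a difference of 0.27 (SE 0.08) that was called with the block alone (adjusted p = 0.159, and 0.0213 with the block). On the brightest probe sets 0 members were called for culture time in the reported fit (0.500% of all genes called). With the block LATS2 was the only one (17.8%).

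A dimmer LATS2 probe set, 223380_s_at, rose with Aa at both times. It stood at 9.28, 9.45 and 9.29 in 24 h controls and at 9.95, 9.95 and 9.73 with Aa, a rise of 0.54 (SE 0.15, adjusted p = 0.0224). At 48 h the values were 9.31, 9.85 and 9.55 against 10.02, 10.34 and 10.22, a rise of 0.63 (SE 0.15, adjusted p = 0.00776). The groups did not overlap at either time, and LATS2 would thus be counted as risen or as not called according to the probe set read.

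AJUBA, which encodes a LIM protein that binds LATS kinases, showed the sharpest split. Its brightest probe set read 11.64, 11.49 and 11.79 in 48 h controls and 12.08, 11.89 and 12.60 with Aa, a difference of 0.55 (SE 0.27, interval -0.05 to 1.16, adjusted p = 0.137), called as a rise with the block (adjusted p = 0.0140). Probe set 1553764_a_at read 0.47 (SE 0.27) in the same direction and was called with the block (adjusted p = 0.0250). Probe set 225807_at fell instead, by 0.93 at 48 h (SE 0.23, adjusted p = 0.0119), from 7.60, 8.40 and 7.83 to 6.60, 7.18 and 7.26. At 24 h it fell by 1.21 (SE 0.23, adjusted p = 0.00446), from 8.11, 7.81 and 8.27 to 6.61, 7.02 and 6.93. The mean of the AJUBA probe sets past the filter changed by 0.03 at 48 h, since the directions cancelled. Which transcripts these probe sets detect was not analysed here.

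AXL, a TAM receptor tyrosine kinase and YAP target, was near its controls on its brighter probe set, at 11.10, 10.24 and 10.66 against 10.74, 10.61 and 10.70 at 24 h (0.02, SE 0.19, interval -0.41 to 0.44) and 0.22 at 48 h (SE 0.19, interval -0.21 to 0.64, adjusted p = 0.409). The dimmer one, 202685_s_at, was lower with Aa in 3 of 3 pairs at 24 h (-0.77, SE 0.33, adjusted p = 0.122) and was called with the block (adjusted p = 0.00772). Over all 21 member probe sets past the filter, 1 rose and 5 fell at 24 h (22.3% of 19623 probe sets called) and 1 rose and 3 fell at 48 h (33.9%). With the block 7 and 11 were called (39.7% and 51.1% of all). The other 3 probe sets, of ANKRD1, LATS2 and AJUBA, lay under the filter.

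**Figure D2:**
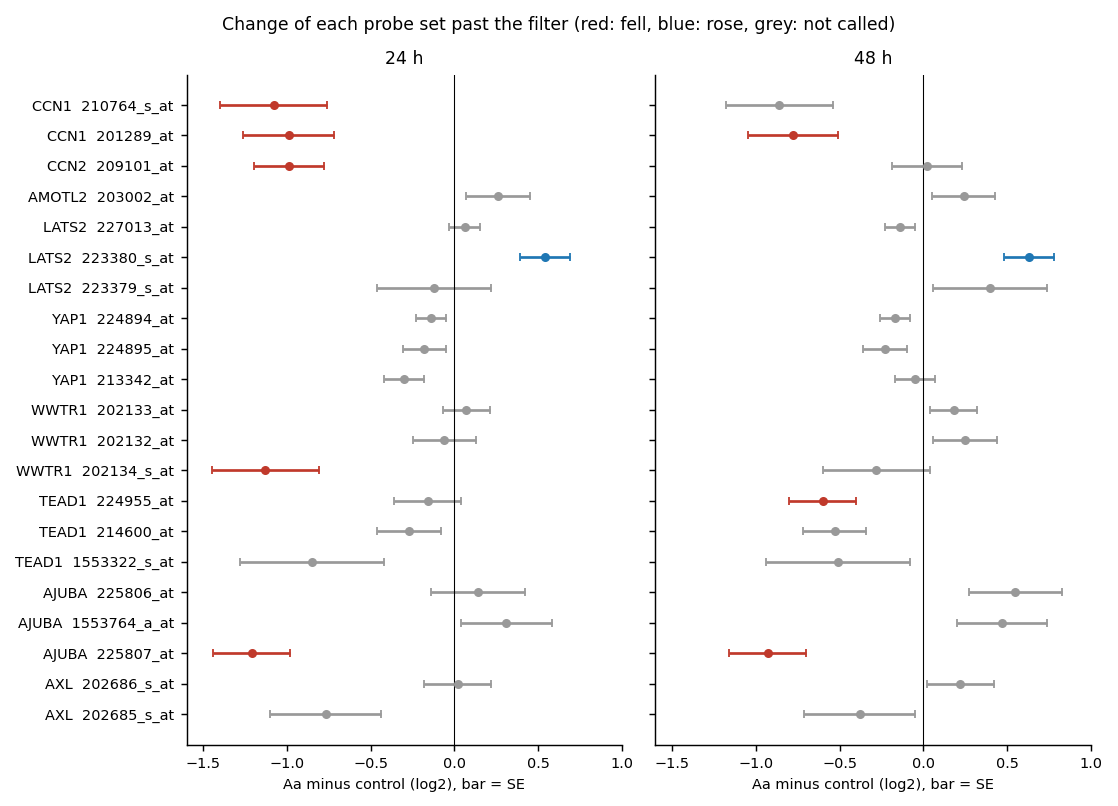
Aa minus control (log2, with the SE of the limma fit as bar, 3 arrays per group) for the 21 probe sets past the filter, at 24 h and 48 h; red fell, blue rose, grey was not called. Probe sets of AJUBA, LATS2, WWTR1 and AXL do not share a value, while both of CCN1 lie between -1.08 and -0.78.

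**Figure D3:**
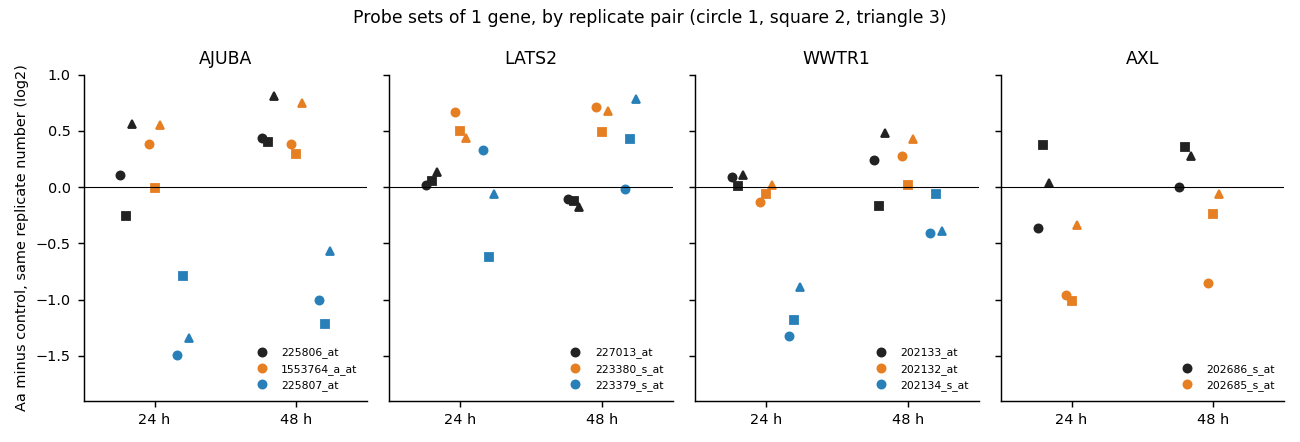
Aa minus control within each replicate number (log2) for the probe sets past the filter of AJUBA, LATS2, WWTR1 and AXL, at 24 h and 48 h; colours are probe sets and symbols replicate numbers. AJUBA probe set 225807_at is below 0 in all 6 pairs, from -1.49 to -0.57, and LATS2 probe set 223380_s_at is above 0 in all 6, from 0.44 to 0.71.

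The members differ in genomic span, a property the choice of genes did not use. CCN1 and CCN2 span 3.19 and 3.20 kb in GRCh38.p14, AJUBA 11.4, AMOTL2 20.1, AXL 42.5, LATS2 88.6, YAP1 123, WWTR1 208 and TEAD1 270 kb. Genes of 100 to 300 kb, the class of YAP1, WWTR1 and TEAD1, had a median change of -0.26 at 48 h, and 33.8% of them fell. Genes under 10 kb, the class of the CCN genes, had medians of -0.05 and -0.00 at 24 h and 48 h, and 18.1% and 20.7% of them fell. A link between span and the members' changes was not tested.

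Genes of the pathway, with the members among them, were read from lists written from general knowledge. CCN1 and CCN2 are thus counted among those that fell at 24 h and TEAD1 among those at 48 h. Over 7 lists, 74 of 95 genes were tested, of which 3 rose and 12 fell at 24 h (20.3%, with 23.1% called among all genes) and 9 rose and 18 fell at 48 h (36.5%, with 37.8%). Their median changes were -0.12 and -0.15, against -0.02 and -0.00 for all genes. With the block 7 rose and 23 fell at 24 h (41.3% of all genes called), and 14 rose and 28 fell at 48 h (54.8%).

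Among the YAP target genes besides the members, 14 were tested. At 24 h 3 of them fell and 0 rose (median -0.29), and at 48 h 4 fell and 1 rose (median -0.35). Of all genes 23.1% were called at 24 h and 37.8% at 48 h, so the share of these genes called was close to the background. Counted with the members, the 20 targets tested gave 0 up and 5 down at 24 h and 1 up and 4 down at 48 h. With the block they gave 1 and 8, and 2 and 10, where 41.3% and 54.8% of all genes were called. RBMS3, an RNA-binding protein gene spanning 729 kb, fell the most, by 2.31 (SE 0.41, adjusted p = 0.00301) at 24 h and by 3.19 (SE 0.41) at 48 h, when its Aa mean of 3.51 was below the filter value. NT5E, which encodes the surface enzyme CD73, fell by 0.99 (SE 0.21) and by 0.70 (SE 0.21). TGFB2, the growth factor gene, fell by 0.78 at 24 h (SE 0.17, adjusted p = 0.00903). GADD45A, which is also induced by p53, rose by 1.03 at 48 h (SE 0.15, adjusted p = 0.000644).

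Of the Hippo kinases and their partners 16 were tested, with 2 up and 1 down at 24 h (3 and 2 with the block; median 0.10) and 4 up and 2 down at 48 h (5 and 3 with the block; median -0.02). The shares called among all genes were 23.1% at 24 h and 37.8% at 48 h (41.3% and 54.8% with the block). MOB1A, the cofactor that activates LATS kinases, rose by 0.50 (SE 0.09) and by 0.41 (SE 0.09). The LATS-related kinase gene STK38L rose by 1.31 (SE 0.26) and 0.92 (SE 0.26). MAP4K4, an upstream kinase gene, fell by 0.42 at 24 h (SE 0.10), and STK3, which encodes the Hippo kinase MST2 and spans 599 kb, by 0.78 at 48 h (SE 0.22). Of 7 coactivator, TEAD and VGLL genes TEAD2 fell at 24 h, by 0.90 (SE 0.14, adjusted p = 0.00149), and at 48 h TEAD2 (by 0.43, SE 0.14) and TEAD1 fell. TEAD3 differed by 0.19 at 24 h (SE 0.24), TEAD4 by -0.20 at 48 h (SE 0.15) and VGLL4, a TEAD repressor gene, by -0.12 and -0.34 (SE 0.22), none of them called in the reported fit. With the block 0 rose and 3 fell at 48 h, the third being VGLL4 (adjusted p = 0.00301).

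Junction and polarity regulators had 1 up and 3 down of 15 tested at 24 h (1 and 5 with the block; median -0.12) and 0 up and 7 down at 48 h (2 and 8 with the block; median -0.23). For this list and those below, 23.1% of all genes were called at 24 h and 37.8% at 48 h (41.3% and 54.8% with the block). CRB3, the apical polarity gene, fell by 1.15 (SE 0.19, adjusted p = 0.00222) and 1.13 (SE 0.19). The scaffold gene DLG1 fell by 0.60 (SE 0.16) and 0.72 (SE 0.16). CTNNA1, alpha-catenin, fell by 0.36 at 24 h (SE 0.10) and PATJ by 0.96 at 48 h (SE 0.21). The 15 SRF and MRTF genes tested held SRF, MRTFA and MRTFB themselves beside their targets. The activity of these factors also follows tension and overlaps YAP's at CCN1 and CCN2. Of the 15 genes 0 rose and 2 fell at 24 h (2 and 5 with the block, median -0.16). At 48 h 2 rose and 2 fell (4 and 3 with the block, median -0.06). TPM1 fell by 0.51 (SE 0.11) and 0.40 (SE 0.11), VCL, vinculin, by 0.53 at 24 h (SE 0.14), and MYL9, a myosin light chain gene, by 1.44 at 48 h (SE 0.30). The genes that rose at 48 h were TAGLN2, by 1.12 (SE 0.25), and SRF itself, by 0.39 (SE 0.13, adjusted p = 0.0346). CALD1 differed by -0.24 at 24 h (SE 0.12), which was called with the block alone (adjusted p = 0.0302). Of the 5 TAM receptor and ligand genes 0 were called at 24 h, and with the block PROS1 (adjusted p = 0.0153) and MERTK (adjusted p = 0.0343) fell. At 48 h PROS1, a TAM ligand gene, fell by 0.72 (SE 0.13) and the receptor gene TYRO3 rose by 0.41 (SE 0.13), beside -0.24 for GAS6 (SE 0.16) and, at 24 h, -0.31 for PROS1 (SE 0.13), -0.38 for MERTK (SE 0.20) and -0.16 for GAS6 (SE 0.16), which were not called in the reported fit.

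**Figure D4:**
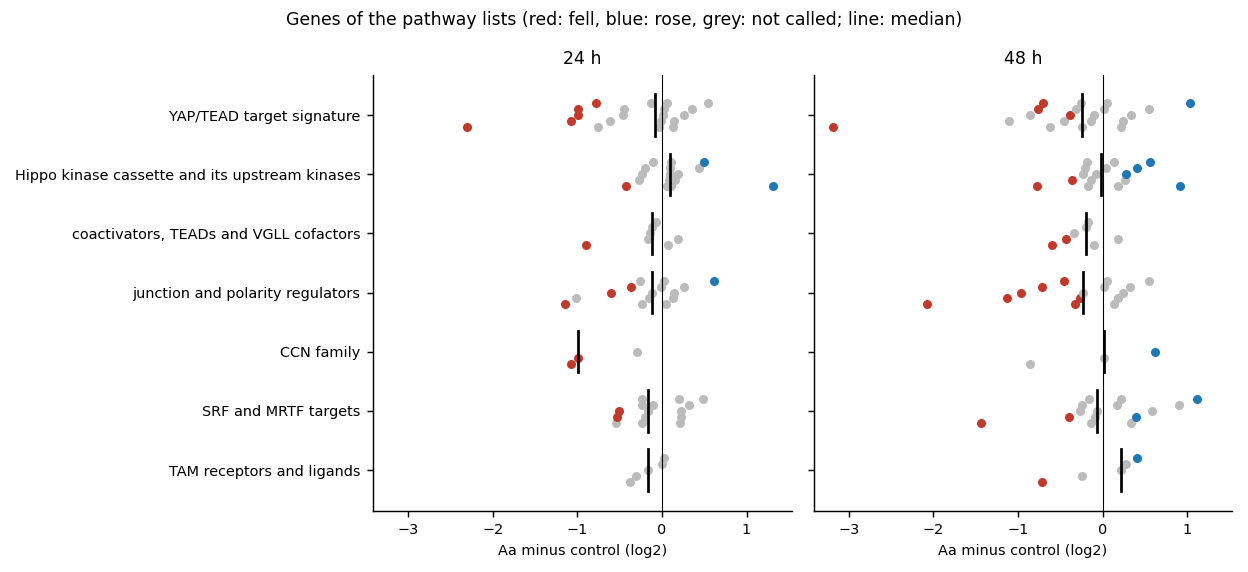
Aa minus control (log2) of each tested gene in 7 pathway lists at 24 h and 48 h; red fell, blue rose, grey was not called, and the line is the list's median. The leftmost point, RBMS3, reaches -3.19 at 48 h, and the CCN family, with 3 genes tested, has its median at -0.99 at 24 h and at 0.02 at 48 h.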

How the data were processed

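RNA of 12 samples was hybridised to Affymetrix expression arrays. The authors deposited log2 intensities per probe set, made with GCRMA per the submitters' processing notes (version not given in the sources used here), with values from 0.82 to 16.25 and array medians from 2.93 to 3.01. GCRMA estimates background from probe sequence, which pulls dim probe sets to a floor of about 2 to 3 and compresses their differences. For arrays their number, 3 in each group, limits the precision.

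Of 54675 probe sets 41091 had 1 gene, 1801 several and 11777 none, and 6 control probe sets that name a gene were left out. Symbols were updated to GRCh38.p14, and 54 kept the array's name. Each gene was read from its brightest probe set if its mean was at least 4. limma 3.58.1 in R 4.3.3 fitted 4 group means to all arrays (lmFit, eBayes without trend; 8 residual and 2.76 prior degrees of freedom), two-sided, with Benjamini-Hochberg adjustment over 10791 genes or, in a fit of its own, 19623 probe sets. The code was tested on simulated data. Changes are Aa minus control; rose and fell mean an adjusted p under 0.05. Deviations from the group means correlated between groups at r = 0.35 to 0.62 for the 18 same-numbered pairs and at -0.49 to -0.01 for the 36 others, so a pairing by number is read from the data.

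The members, lists and tests were chosen with earlier results of these data known. Named genes were all members and, per list and time, up to 3 further genes with the smallest p. SRF, MRTFA and MRTFB were named besides, and CCN1 and CCN2 also got their 3 most similar genes. Alternatives changed the filter, probe set, scaling, variance model, samples or block.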

Additional observations from a re-analysis of the deposited data

How the results depend on the processing

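No member called in the reported fit was called in the other direction under any alternative. AJUBA, not called there at 48 h, rose with the replicate block but fell on its probe set 225807_at. The members called at 24 h, 2 in the reported fit, numbered 1 without a filter and with the groups of that time alone, 5 when a gene counted with any probe set, and 0 to 2 when arrays were left out. At 48 h 1 was called in the reported fit. The count was 2 with a filter of 5, without shared-sequence probe sets and with a variance trend, and 3 with the replicate block. It was 0 without a filter, 4 with any probe set, and 0 to 2 when arrays were left out. The share of all genes called moved too. At 24 h it was 23.1% in the reported fit, 10.7% without a filter and 4.97% without replicate 1 in all groups. At 48 h it was 37.8% in the reported fit and 54.8% with the replicate block. The shares in the other fits are not given here, and the counts were not tested against the shares.

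With the replicate block 1 member was called for the change of the effect (11.0% of all genes) and 1 for culture time (17.8%). It called 11 member probe sets at 48 h (51.1% of all probe sets). Of the 74 list genes it called 30 at 24 h (41.3% of all genes) and 42 at 48 h (54.8%). The block also called CCN1 and AJUBA at 48 h, and it changed no other call of a member gene. Member probe sets called ranged from 0 to 4 at 24 h and from 0 to 2 at 48 h when 1 replicate number was left out in all groups. The share of all probe sets called in those fits is not given here. Median centring and quantile normalization moved the median of all genes to between -0.01 and 0.01.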

Other observations

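The 3 genes whose level over the 12 arrays was most like that of CCN1 were GPX1, a peroxidase gene (Pearson's r = 0.976), and the mitochondrial import genes TIMM50 (0.965) and TOMM22 (0.956). TIMM50 had means of 11.40 and 10.60 in control and Aa cells at 24 h and of 11.23 and 10.61 at 48 h. Those most like CCN2 were NANS, of sialic acid synthesis (0.915), GLUD1, glutamate dehydrogenase (0.909), and FBXW9 (0.908). NANS had means of 10.58 and 10.11 at 24 h and 10.47 and 10.52 at 48 h. The genes were picked as the highest of 10791 over arrays that share groups and replicate numbers, and the values are a description.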
